A study of Mus musculus with 9 samples.

Results

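The enzymes and helpers that turn procollagen chains into collagen were followed through 10 genes, chosen by name as prolyl and lysyl hydroxylases, a collagen chaperone, a procollagen C-proteinase and its enhancers. They are P4ha1, P4ha2, P4ha3, Plod1, Plod2, Plod3, Serpinh1, Pcolce, Pcolce2 and Bmp1, and all 10 were found among the 23420 genes counted in every library. RNA was sequenced from mesenchymal cells of C57BL/6 mice aged 3 to 4 weeks. The cells came from the thymus, from bone (femur, tibia and pelvis) and from the dermis of truncal skin, and no group carried a treatment or an engineered allele in the labels. All groups share the sort: at least 25000 lineage-negative cells with SCA1, the surface protein encoded by Ly6a, were taken per sample. Each tissue has 3 libraries, numbered 1, 2 and 3 in bone and skin and 2, 3 and 1-3 in thymus. The labels do not say what 1-3 means, so it may be a pool that shares material with the other thymus libraries. Nor do they say that the libraries come from separate animals, so every p-value rests on variation among these 9 libraries, part of which may be technical.

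Collagen chains are modified inside the endoplasmic reticulum before they fold into a triple helix. Prolyl 4-hydroxylases, each built from an alpha subunit (P4ha1, P4ha2 or P4ha3) and the shared beta subunit P4hb, add the hydroxyl groups that keep the helix stable at body temperature, and they need oxygen, iron, ascorbate and 2-oxoglutarate. Lysyl hydroxylases (Plod1, Plod2 and Plod3) modify lysines that later carry sugars or cross-links. Serpinh1 encodes HSP47, a chaperone that binds the folded helix until it leaves the endoplasmic reticulum. Outside the cell the metalloproteinase encoded by Bmp1 removes the C-propeptide of fibrillar procollagens, and the glycoproteins encoded by Pcolce and Pcolce2 speed up that cleavage. In bone and skin, loss of several of these proteins in humans causes brittle bone or loose skin disorders.

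The 250 bases upstream of the annotated start were taken from RefSeq for GRCm38.p6, in which 8 of the 10 genes were listed. They are shown for the 3 prolyl 4-hydroxylase alpha subunits, whose levels followed different tissues, and for Serpinh1, the gene with the largest difference between bone and skin. Capitals mark ACGTG on either strand (CACGT when read on the other), a form of the core of the hypoxia response element. The form GCGTG was not searched, so windows without capitals may still hold it. The windows are chr10:59323046-59323295 on the + strand for P4ha1, chr11:54100674-54100923 on the + strand for P4ha2, chr7:100285270-100285519 on the + strand for P4ha3 and chr7:99353240-99353489 on the - strand for Serpinh1.
P4ha1: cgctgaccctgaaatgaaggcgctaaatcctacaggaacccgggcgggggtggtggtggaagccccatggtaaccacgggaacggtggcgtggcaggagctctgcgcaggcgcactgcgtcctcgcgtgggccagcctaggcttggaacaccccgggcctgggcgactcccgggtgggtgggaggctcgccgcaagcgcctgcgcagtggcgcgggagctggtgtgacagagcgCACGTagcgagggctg
P4ha2: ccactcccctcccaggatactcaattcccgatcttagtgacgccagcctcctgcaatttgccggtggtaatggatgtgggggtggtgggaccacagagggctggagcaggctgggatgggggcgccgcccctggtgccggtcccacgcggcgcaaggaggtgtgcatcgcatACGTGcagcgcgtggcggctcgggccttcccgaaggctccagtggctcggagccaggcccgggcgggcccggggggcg
P4ha3: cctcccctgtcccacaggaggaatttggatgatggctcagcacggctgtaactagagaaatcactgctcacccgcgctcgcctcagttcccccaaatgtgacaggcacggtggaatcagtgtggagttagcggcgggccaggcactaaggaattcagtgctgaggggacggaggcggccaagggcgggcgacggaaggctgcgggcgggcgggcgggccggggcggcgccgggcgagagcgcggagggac
Serpinh1: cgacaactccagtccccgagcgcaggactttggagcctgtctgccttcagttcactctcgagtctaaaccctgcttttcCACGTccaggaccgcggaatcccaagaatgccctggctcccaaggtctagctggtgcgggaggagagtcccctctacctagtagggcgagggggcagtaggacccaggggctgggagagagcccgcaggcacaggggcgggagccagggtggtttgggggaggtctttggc
The ACGTG letters lay 16 bases before the start in P4ha1, 78 in P4ha2 and 171 in Serpinh1, and they were not in the P4ha3 window. Plod3 held them 54 bases before its start, so 4 of the 8 listed genes had them, against 16.6% of the 32851 mouse promoter windows of this length. The GC box core GGGCGG, searched on both strands with overlapping copies counted, was in 7 of the 8 windows and in 32.7% of all windows. P4ha3 held 5 copies and Plod3 none. The 2 motifs did not overlap in any of the 8 windows. GC content was 55.6% to 70.0% in these windows, beside a median of 52.4% over all. These matches describe letters, not binding.

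Libraries held between 78757872 (bone 3) and 116759235 (skin 3) reads on genes. The mesenchymal markers Pdgfra, Pdgfrb, Thy1, Ly6a, Dcn, Lum, Col1a1, Vim and Eng had reads in all tissues. Markers of other cell types had unequal levels, in CPM after TMM scaling (reads of a gene relative to the effective library size, the scale of all levels here unless named). The 9 chondrocyte markers summed to 30490 to 45896 CPM in bone against 30.4 to 41.3 in thymus and 23.4 to 51.4 in skin. Most of that sum was Prg4, a lubricant of joint surfaces, at 38503 ± 9156 CPM in bone (SD, n = 3). The 9 osteoblast markers summed to 545 to 1210 CPM in bone, 24.1 to 30.6 in thymus and 7.58 to 12.2 in skin. The 12 leukocyte markers summed to 2639 to 3618 CPM in bone, 30.6 to 115 in thymus and 15.9 to 55.4 in skin. All 9 chondrocyte, all 9 osteoblast and 10 of 12 leukocyte markers were highest in bone. Matn3, Bglap and Bglap2 had no reads in thymus, and Ibsp, Dmp1, Cd3e and Elane had none in skin. Keratinocyte markers, 7 of 8 highest in skin, summed to 54.6 to 136 CPM there, 23.1 to 28.6 in thymus and 2.70 to 4.57 in bone, where Krt15 had no reads. Mural cell markers, 5 of 7 highest in thymus, summed to 757 to 1094 CPM there, against 335 to 373 for bone and 51.9 to 129 for skin. Most of the thymus sum was Des at 691 ± 140.1 CPM, while Rgs5 and Cspg4 were highest in bone at 72.2 ± 7.28 and 212 ± 19.9. The 6 endothelial markers summed to 247 to 344 CPM in skin, 58.2 to 72.4 in bone and 59.3 to 96.5 in thymus. Each tissue was highest for 2 of them, and Tek made up most of the skin sum at 236 ± 39.3 CPM. For the 6 adipocyte markers the ranges were 414 to 554 for skin, 217 to 353 for bone and 1124 to 1261 for thymus. Lpl made up nearly all of the thymus sum at 1203 ± 77.0 CPM and was the 1 marker of the 6 highest in thymus, beside 2 in bone and 3 in skin. Their part in the results on the 10 genes was not tested. In such bulk samples, fewer cells of a type and less RNA per cell cannot be told apart.

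Skin mesenchyme held the highest level of 7 of the 10 genes, namely P4ha1, P4ha2, Plod3, Serpinh1, Pcolce, Pcolce2 and Bmp1, although for Plod3 this order of thymus and skin turned with library size alone and in RPKM. Bone held the highest level of P4ha3 and Plod2, and thymus the highest level of Plod1. Between bone and skin all 10 genes passed edgeR's quasi-likelihood test at a Benjamini-Hochberg adjusted p under 0.05, 2 of them higher and 8 lower in bone. Among all 15635 genes tested, 47.1% passed in that comparison, 23.7% higher and 23.4% lower in bone. Between thymus and skin 8 of the 10 passed, 1 higher and 7 lower in thymus, beside 37.6% of all genes (19.3% higher and 18.3% lower). Between thymus and bone 7 of the 10 passed, 4 higher and 3 lower in thymus, beside 32.6% of all genes (16.5% higher and 16.1% lower). The median log2 fold change of the 10 genes was -1.43 for bone against skin, -1.03 for thymus against skin and 0.34 for thymus against bone, where the medians of all genes tested were 0.03, 0.03 and 0.02. The comparisons share libraries, so their counts are not independent.

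Without the thymus library 1-3, the counts were 4 higher and 3 lower against bone and 1 higher and 6 lower against skin. The gene lost there was Plod3. The scaling matters for comparisons with skin, where collagen transcripts take a large share of the reads. With library size alone, 7219 genes were higher and 1239 lower in thymus than in skin, instead of 3013 and 2865, and the median of all genes moved to 0.66 on the log2 scale. For bone against skin the same change gave 7474 higher and 1391 lower instead of 3702 and 3661, with a median of 0.72. Of the 10 genes, 3 were then above skin and 5 below it in thymus, and 2 above and 7 below it in bone. Their median moved with all genes, to -0.40 for thymus against skin and -0.74 for bone against skin.

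**Figure D1:**
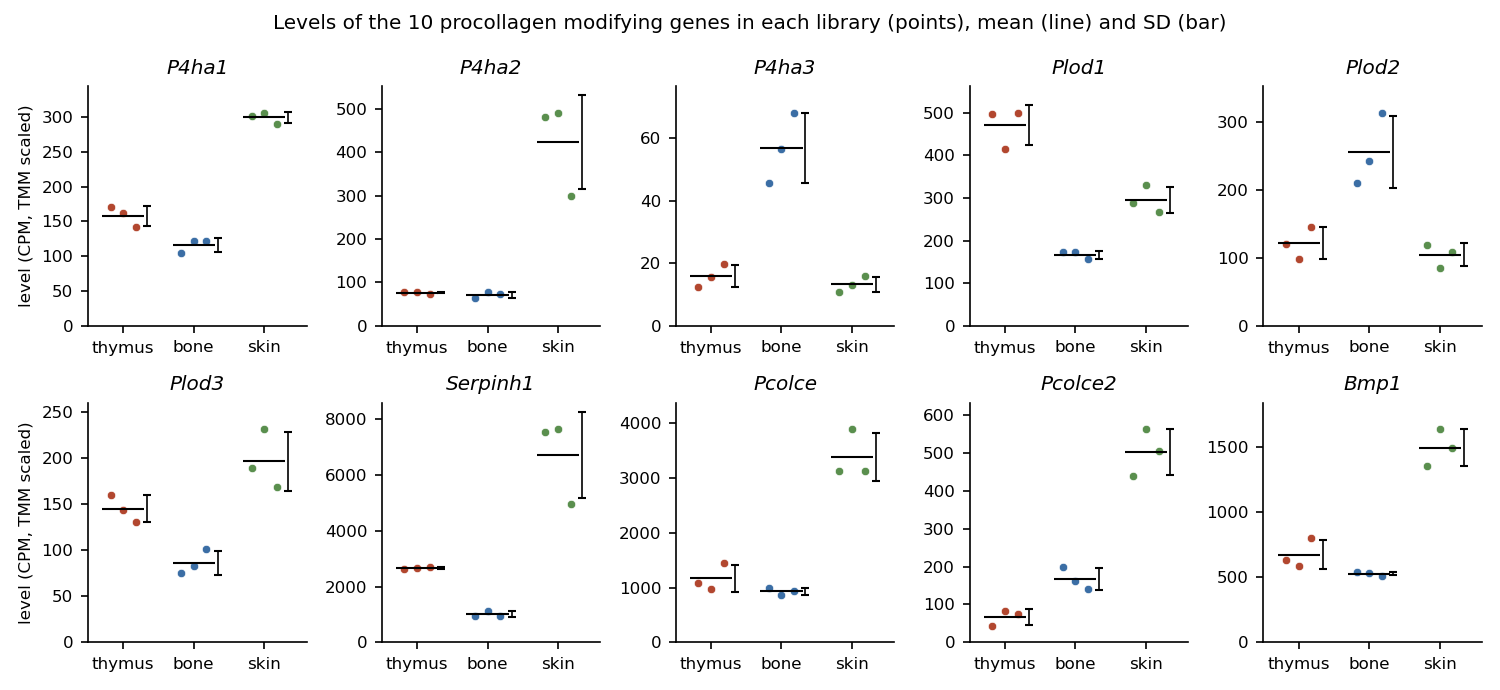
Level of each of the 10 genes in every library, in TMM-scaled CPM on a linear axis starting at 0. Points are libraries, the line is the mean and the bar the SD of the 3 libraries of a tissue. P4ha3 and Plod2 are highest in bone and Plod1 in thymus, and the other 7 genes are highest in skin, though Plod3 is not with library size alone.

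The 3 prolyl 4-hydroxylase alpha subunits followed different tissues. P4ha1 (mm10 chr10:59323296-59373304, + strand), the subunit of the most widely expressed form of the enzyme, stood at 171, 162 and 142 CPM in thymus 2, 3 and 1-3, at 105, 122 and 123 in bone 1 to 3, and at 301, 306 and 290.4 in skin 1 to 3. The 3 groups did not overlap, and skin was highest and bone lowest. Skin exceeded bone 2.57-fold (log2 fold change of bone against skin -1.36 ± 0.13 SE, adjusted p = 6.69e-06) and thymus 1.89-fold (thymus against skin -0.92 ± 0.13, adjusted p = 0.000141). The latter call was lost with library size alone (-0.28, adjusted p = 0.0934). Thymus stood above bone by 0.44 ± 0.13 (adjusted p = 0.0183). That difference missed the threshold without thymus 2 (adjusted p = 0.0720), thymus 3 (0.0554) or bone 1 (0.0772).

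P4ha2 (chr11:54100924-54131667, + strand), the alpha subunit of the type II enzyme, set skin apart. It stood at 77.0, 77.4 and 74.4 CPM in thymus 2, 3 and 1-3, at 64.1, 78.5 and 72.7 in bone, and at 481, 491 and 298 in skin 1, 2 and 3. Skin 3 lay well under the other skin libraries but far above all 6 libraries of thymus and bone, whose ranges overlapped. Skin was 5.90-fold above bone (bone against skin -2.56 ± 0.19, adjusted p = 1.25e-06) and 5.55-fold above thymus (thymus against skin -2.47 ± 0.19, adjusted p = 1.52e-06). Thymus and bone differed by 0.09 ± 0.18 on the log2 scale (adjusted p = 0.752), which does not show that they are alike.

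P4ha3 (chr7:100285520-100319699, + strand), the alpha subunit with the lowest mean RPKM in every tissue, ran the other way. Its levels were 12.6, 15.5 and 19.6 CPM in thymus 2, 3 and 1-3, 45.7, 56.4 and 68.1 in bone, and 10.9, 13.1 and 15.8 in skin. All bone libraries were above all others, and thymus and skin overlapped. Bone exceeded skin 4.28-fold (bone against skin 2.10 ± 0.22, adjusted p = 1.41e-05) and thymus 3.57-fold (thymus against bone -1.83 ± 0.22, adjusted p = 5.32e-05). Thymus and skin differed by 0.26 ± 0.21 (adjusted p = 0.362). With library size alone that value was 0.89 and passed (adjusted p = 0.00328). The cartilage, osteoblast and leukocyte marker sums given above were also highest in the bone libraries, and their part in the P4ha3 difference was not tested.

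The lysyl hydroxylases split by tissue as well. Plod1 (chr4:147909753-147936776, - strand), which acts on lysines of the helical domain, was highest in thymus, with 497, 416 and 500.3 CPM in libraries 2, 3 and 1-3. Bone held 172, 173 and 156 CPM, and skin 289, 329.8 and 268. The groups did not overlap, and bone was lowest. Thymus was 2.82-fold above bone (1.50 ± 0.14, adjusted p = 9.54e-06) and 1.59-fold above skin (0.67 ± 0.14, adjusted p = 0.00221). Bone was 1.77-fold below skin (-0.82 ± 0.14, adjusted p = 0.000449), a call that was lost with library size alone (-0.13, adjusted p = 0.408) and with limma on log2 of RPKM plus 1 (-0.27, adjusted p = 0.0761). The summed mural cell markers were also highest in thymus, where 5 of the 7 were highest and Rgs5 and Cspg4 were not, and their part in the Plod1 difference was not tested.

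Plod2 (chr9:92571255-92608427, + strand), the lysyl hydroxylase of the telopeptides whose products form the stable cross-links of bone and scar, was highest in bone. It stood at 211, 243 and 314 CPM in bone 1 to 3, at 120.5, 98.5 and 146 in thymus 2, 3 and 1-3, and at 119, 85.9 and 109 in skin. Every bone library was above every other library, while thymus and skin overlapped. Bone exceeded skin 2.44-fold (1.29 ± 0.19, adjusted p = 0.000219) and thymus 2.11-fold (thymus against bone -1.08 ± 0.19, adjusted p = 0.00122). Thymus and skin differed by 0.21 ± 0.19 (adjusted p = 0.422), and by 0.83 with library size alone (adjusted p = 0.00367). The marker sums of cartilage, osteoblasts and leukocytes were highest in the same bone libraries, and their part in this difference was not tested either. The exons of Plod2 share 346 bases with an uncounted transcript on the other strand, and no source used here states the strand setting of the counting.

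Plod3 (chr5:136987019-136996646, + strand), which hydroxylates lysines and also adds sugars to them, was lowest in bone. Its levels were 160.4, 143 and 131 CPM in thymus 2, 3 and 1-3, 75.6, 82.6 and 101 in bone, and 189.7, 232 and 169 in skin. Bone lay below both other tissues without overlap. Bone was 2.28-fold below skin (-1.19 ± 0.16, adjusted p = 9.41e-05), and thymus was 1.68-fold above bone (0.75 ± 0.16, adjusted p = 0.00348). Thymus stood 1.36-fold below skin at the edge of the threshold (-0.44 ± 0.16, adjusted p = 0.0458). That last call was lost without the filter on low counts (adjusted p = 0.0503) and with only thymus and skin in the fit (0.0556). It was lost without thymus 2 (0.0524), thymus 3 (0.114), thymus 1-3 (0.103), bone 1 (0.0524), bone 2 (0.0633), skin 1 (0.0702) or skin 2 (0.201). With library size alone (0.20, adjusted p = 0.293) and with limma on log2 of RPKM plus 1 (0.12, adjusted p = 0.502) the sign turned. Its exons share 529 bases with Znhit1 on the opposite strand. No source used here states how reads over those bases were assigned, so they may be lost as ambiguous or mixed.

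Serpinh1 (chr7:99345375-99353239, - strand) encodes the collagen chaperone HSP47 and had the largest difference of the 10 genes between bone and skin. It stood at 2648, 2676 and 2699 CPM in thymus 2, 3 and 1-3, at 963, 1137 and 940.0 in bone 1 to 3, and at 7557, 7646 and 4947 in skin 1 to 3. The 3 tissues formed separate steps, with skin 3 again the lowest skin library. Skin was 6.63-fold above bone (bone against skin -2.73 ± 0.19, adjusted p = 9.37e-07) and 2.51-fold above thymus (thymus against skin -1.33 ± 0.18, adjusted p = 0.000152). Thymus was 2.64-fold above bone (1.40 ± 0.18, adjusted p = 0.000125). Without skin 3 the difference between bone and skin was -2.91 for Serpinh1 and -2.76 for P4ha2.

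In the C-propeptide cleavage step, Bmp1 and Pcolce set skin apart, while Pcolce2 also separated thymus from bone. Bmp1 (chr14:70474555-70520260, - strand), the procollagen C-proteinase, stood at 633, 588 and 798 CPM in thymus 2, 3 and 1-3, at 538, 532 and 513 in bone, and at 1355, 1636 and 1492 in skin. Every skin library was above every other, and the thymus values lay just above those of bone. Bone was 2.83-fold below skin (-1.50 ± 0.15, adjusted p = 1.32e-05), and thymus 2.22-fold below skin (-1.15 ± 0.15, adjusted p = 0.000112). Thymus and bone differed by 0.35 ± 0.15 (adjusted p = 0.0987), by 0.19 without thymus 1-3, and by 0.35 with limma on log2 of RPKM plus 1, where it passed (adjusted p = 0.0458).

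Pcolce (chr5:137605107-137611404, - strand), the main enhancer of that proteinase, had 1088 CPM in thymus 2, 980.3 in thymus 3 and 1446 in thymus 1-3. In bone it had 993, 858 and 946 CPM, and in skin 3126, 3893 and 3138. Skin stood apart, while thymus and bone overlapped. Bone was 3.63-fold below skin (-1.86 ± 0.18, adjusted p = 8.42e-06) and thymus 2.89-fold below skin (-1.53 ± 0.18, adjusted p = 4.06e-05). Thymus and bone differed by 0.33 ± 0.17 (adjusted p = 0.175). The exons of Pcolce share 112 bases with Fbxo24 on the same strand and 112 with an uncounted antisense transcript.

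Pcolce2 (chr9:95637628-95695551, + strand), the other enhancer, which also aids the processing of apolipoprotein A-I, showed the widest thymus to skin difference of the 10 genes. Its levels were 43.7, 83.3 and 76.2 CPM in thymus 2, 3 and 1-3, 198, 163 and 141 in bone, and 439, 562 and 506 in skin. The groups formed 3 separate steps, with thymus lowest. Thymus was 7.42-fold below skin (-2.89 ± 0.24, adjusted p = 3.30e-06) and 2.47-fold below bone (-1.30 ± 0.23, adjusted p = 0.000984). Bone was 3.01-fold below skin (-1.59 ± 0.23, adjusted p = 0.00016).

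**Figure D2:**
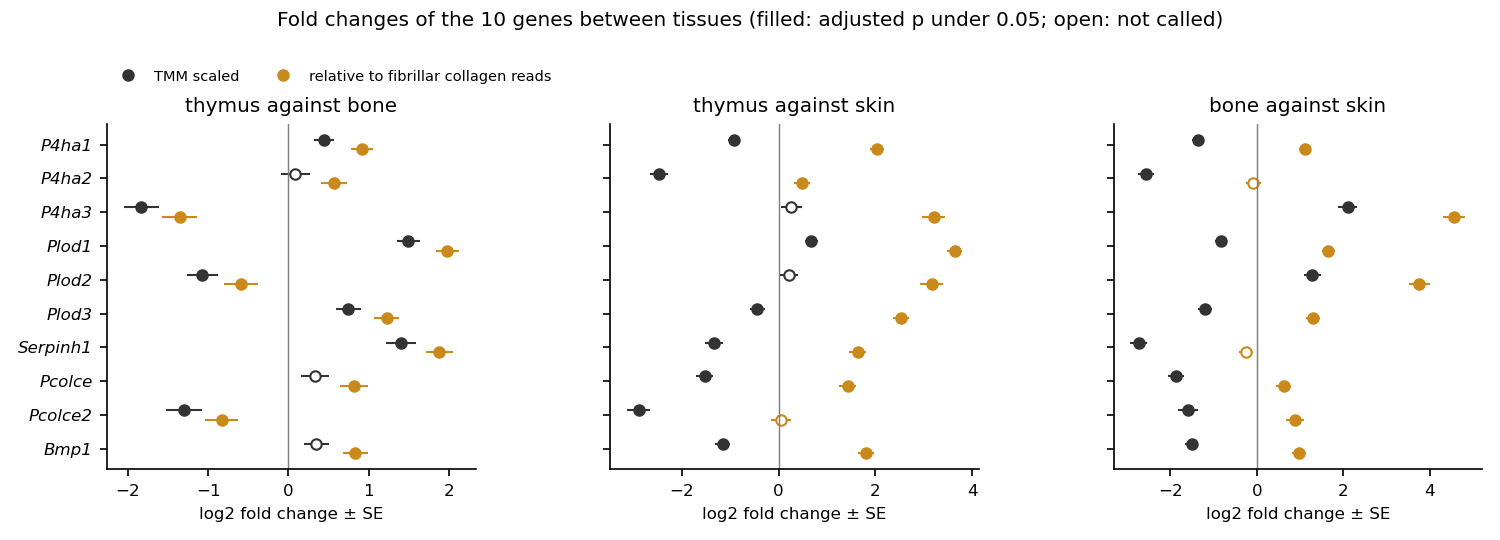
Log2 fold change with its SE for each gene in the 3 comparisons, scaled by TMM (dark) and relative to fibrillar collagen reads (ochre). Filled points passed an adjusted p of 0.05. Most dark points of the comparisons with skin lie left of 0 (5 called lower and 3 higher in thymus with library size alone), and most ochre points lie right of it.

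Levels of different genes were compared per length, in the RPKM deposited by the authors, as mean ± SD of 3 libraries. In thymus Serpinh1 led with 1104 ± 36.9 RPKM, followed by Pcolce with 779 ± 146, Bmp1 with 172 ± 19.2 and Plod1 with 146 ± 10.4. Plod3 (48.9 ± 5.55), P4ha1 (39.2 ± 4.37), Pcolce2 (36.8 ± 12.1), Plod2 (36.3 ± 5.80) and P4ha2 (32.8 ± 1.67) came next, and P4ha3 was last with 6.78 ± 1.45. Bmp1 and Plod1 differed by less than the sum of their SDs, as did each neighbouring pair from Plod3 down to P4ha2.

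Bone changed that order. Pcolce led there with 616 ± 27.6 RPKM, ahead of Serpinh1 with 418 ± 55.4, Bmp1 with 135 ± 3.74, Pcolce2 with 90.3 ± 14.5, Plod2 with 78.1 ± 16.1 and Plod1 with 51.9 ± 3.50. P4ha2 (31.0 ± 4.20), Plod3 (29.0 ± 4.66), P4ha1 (28.9 ± 3.10) and P4ha3 (24.1 ± 4.73) lay within the sum of their SDs of each neighbour, and so did Pcolce2 and Plod2. Skin had Serpinh1 at 1894 ± 425 and Pcolce at 1525 ± 132, which lay within the sum of their SDs. Below them came Bmp1 (262 ± 14.6), Pcolce2 (186 ± 15.3), P4ha2 (123 ± 30.9), Plod1 (62.6 ± 4.74), P4ha1 (50.7 ± 1.97), Plod3 (44.9 ± 5.79), Plod2 (21.5 ± 4.39) and P4ha3 (3.85 ± 0.698). Among those only P4ha1 and Plod3 were within the sum of their SDs.

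The makeup of each enzyme class, as a share of its summed RPKM, differed between tissues. P4ha1 was the leading alpha subunit in thymus, with 52.2, 50.3 and 46.6% in libraries 2, 3 and 1-3. P4ha2 led in skin, with 72.1, 72.0 and 61.9% in libraries 1 to 3. In bone the 3 subunits shared the class more evenly, at 34.5 ± 1.14% for P4ha1, 36.9 ± 1.93% for P4ha2 and 28.6 ± 2.81% for P4ha3. P4ha3 made up 8.69 ± 2.31% in thymus and 2.27 ± 0.866% in skin. The bone share of P4ha3 did not overlap with that of either other tissue. All these shares depend on the gene lengths behind the RPKM, whose annotation no source used here gives. By reads, with no length taken into account, P4ha1 led in bone with 47.7 ± 1.17%, ahead of P4ha2 (29.3 ± 1.52%) and P4ha3 (23.0 ± 2.49%). P4ha1 still led in thymus and P4ha2 in skin.

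Among lysyl hydroxylases, Plod1 held 63.1 ± 0.691% of the class in thymus, 33.0 ± 5.22% in bone and 48.5 ± 1.16% in skin. Plod2 held 45.0, 47.7 and 53.7% in bone 1 to 3, against 15.7 ± 2.01% in thymus and 16.7 ± 3.72% in skin. The ratio of Plod2 to Plod1 was therefore 1.21, 1.38 and 1.97 in the bone libraries and below 1 in every thymus and skin library, with means of 0.248 and 0.346. Plod3 took its largest share in skin, 34.8 ± 2.66%. Pcolce made up 95.4 ± 1.73% of the enhancers in thymus, 87.2 ± 1.70% in bone and 89.1 ± 0.712% in skin, and Pcolce2 the rest. With 3 libraries against 3 an exact two-sided permutation test cannot give a p below 0.1. Of the 24 comparisons of shares, those whose groups did not overlap reached it, with an adjusted p of 0.126. The comparisons that overlapped were P4ha1 for bone against skin, Plod2 for thymus against skin, Plod3 for thymus against bone, and the enhancers for bone against skin.

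**Figure D3:**
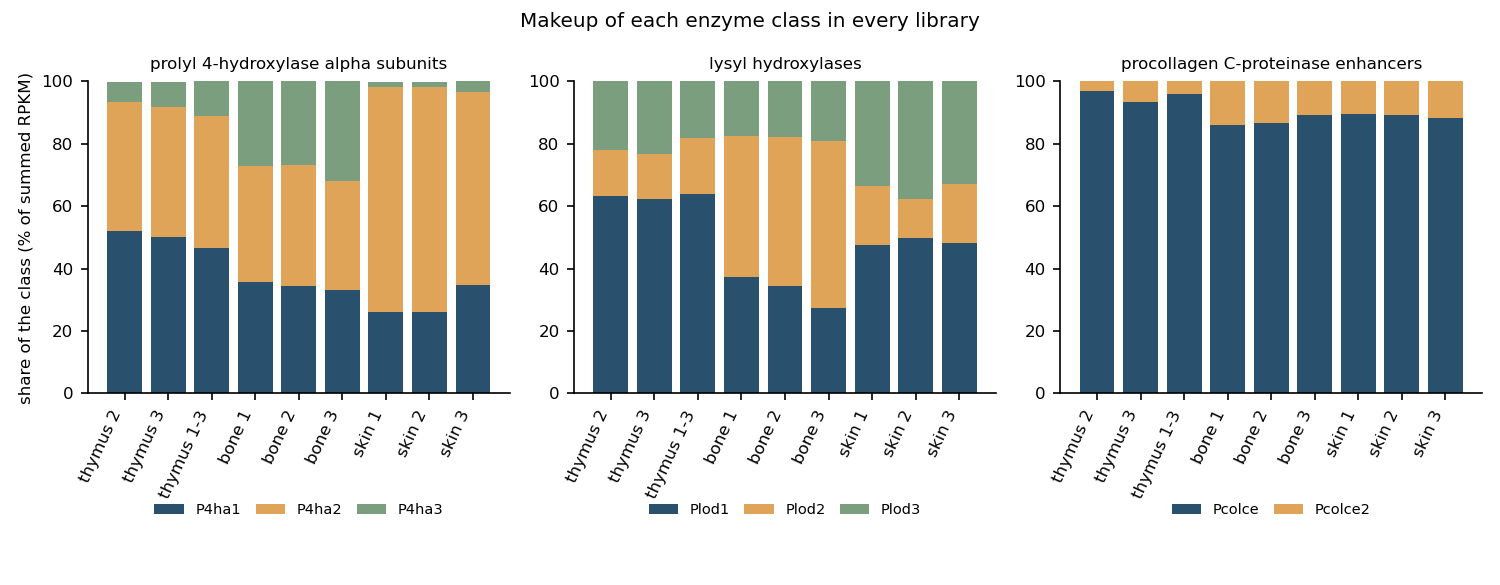
Share of each gene in the summed RPKM of its class (percent), stacked to 100 for each of the 9 libraries. Bone is the tissue with the largest shares of P4ha3 and Plod2, and skin the one with the largest share of P4ha2.

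Genes whose products work together were also compared as ratios. The ratio of Pcolce to Bmp1 in RPKM was 4.50 ± 0.331 in thymus, 4.58 ± 0.291 in bone and 5.83 ± 0.348 in skin. That of P4hb to the summed alpha subunits was 6.38 ± 0.640 in thymus, 4.44 ± 0.611 in bone and 3.44 ± 0.0557 in skin. P4hb is also known as a free disulfide isomerase and as part of a lipid transfer complex. Skin was highest for the former ratio and lowest for the latter, with no overlap with thymus or bone in either.

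The load of collagen transcripts differed between the tissues. The 11 fibrillar collagen chains took 5.09, 5.64 and 4.97% of gene reads in thymus 2, 3 and 1-3, 7.36, 8.03 and 7.34% in bone, and 26.6, 26.7 and 25.0% in skin. The 3 groups did not overlap, and the exact permutation test gave its smallest possible p of 0.1 for each pair. The 10 modifying genes took 0.636 ± 0.0263% of reads in thymus, 0.403 ± 0.0187% in bone and 0.989 ± 0.134% in skin. Per 1000 fibrillar collagen reads this was 122 ± 12.2 in thymus, 53.3 ± 0.468 in bone and 37.8 ± 3.79 in skin. Thymus thus had the lowest fibrillar load and, in sum, the most modifying transcripts for each fibrillar collagen read. Serpinh1, Pcolce and Bmp1 led that sum in thymus with 58.5, 25.7 and 14.7 reads per 1000, while P4ha3, Plod2 and Pcolce2 were highest in bone by this measure. Thymus also carries much non-fibrillar collagen: all 44 collagen chains together took 10.3 ± 0.0816% of reads in thymus, 9.71 ± 0.567% in bone and 28.4 ± 1.26% in skin.

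Each gene was then tested against the fibrillar collagen reads, so that a log2 fold change of 0 means that it changed as much as they did. Because the load itself differs so much, most genes of the genome move in this test. Between thymus and skin 9 of the 10 genes were higher in thymus and 0 lower, beside 84.3% higher, 1.32% lower and 85.6% in either direction among all genes tested. Between bone and skin 8 were higher in bone and 0 lower, beside 83.9% higher, 1.82% lower and 85.8% in either direction. Between thymus and bone 7 were higher and 3 lower in thymus, beside 40.4% and 10.2% of all genes and 50.5% in either direction. The median of the 10 genes was 1.92 for thymus against skin, 1.04 for bone against skin and 0.82 for thymus against bone. The medians of all genes tested were 2.97, 2.50 and 0.50.

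The comparisons that did not pass relative to the collagen reads were those of P4ha2 and Serpinh1 for bone against skin and of Pcolce2 for thymus against skin. For bone against skin, P4ha2 differed from the collagen reads by -0.08 ± 0.17 (adjusted p = 0.658) and Serpinh1 by -0.25 ± 0.17 (adjusted p = 0.172). Serpinh1 gave 15.2, 17.5 and 15.0 reads per 1000 fibrillar reads in bone 1 to 3 and 21.8, 20.1 and 14.7 in skin 1 to 3, so the tissues overlapped through skin 3. Without skin 3, Serpinh1 was lower in bone by this measure (-0.40, adjusted p = 0.0222). In thymus Serpinh1 gave 59.6, 56.0 and 60.0 reads per 1000, above every other library. Relative to the collagen reads thymus exceeded bone 3.68-fold (1.88 ± 0.17, adjusted p = 3.54e-06) and skin 3.10-fold (1.63 ± 0.17, adjusted p = 7.04e-07). The medians of all genes tested were 0.50 against bone and 2.97 against skin, so the latter value lies below that of a typical gene.

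Pcolce2 in thymus gave 0.983, 1.74 and 1.69 reads per 1000 fibrillar reads, and in skin 1.27, 1.48 and 1.51. The 2 tissues overlapped, with a difference of 0.06 ± 0.21 (adjusted p = 0.807). Bone was highest by this measure, with 3.12, 2.50 and 2.25. P4ha2 gave 1.73, 1.62 and 1.65 in thymus, 1.01, 1.21 and 1.16 in bone, and 1.39, 1.29 and 0.888 in skin. Thymus stood above bone by 0.57 ± 0.17 (adjusted p = 0.0132) and above skin by 0.49 ± 0.17 (adjusted p = 0.0148). The former was lost without bone 1 (adjusted p = 0.0573) and the latter without skin 3 (adjusted p = 0.0624).

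In the comparisons with skin, the genes farthest from the collagen reads were P4ha3, Plod2 and Plod1. Relative to those reads bone exceeded skin 23.7-fold for P4ha3 (4.56 ± 0.25, adjusted p = 4.32e-09) and 13.5-fold for Plod2 (3.75 ± 0.24, adjusted p = 1.07e-08). For Plod1 thymus exceeded skin 12.4-fold (3.63 ± 0.16, adjusted p = 6.69e-10). Beside these, the medians of all genes tested were 2.50 for bone against skin and 2.97 for thymus against skin. Plod1 gave 10.3 ± 1.41 reads per 1000 fibrillar reads in thymus, 2.62 ± 0.118 in bone and 0.833 ± 0.0350 in skin. In thymus against bone, P4ha3 (-1.36 ± 0.22, adjusted p = 0.000327), Pcolce2 (-0.83 ± 0.21, adjusted p = 0.00552) and Plod2 (-0.59 ± 0.22, adjusted p = 0.0363) were lower relative to the collagen reads. The Plod2 call was lost without thymus 2 (adjusted p = 0.0812), thymus 3 (0.138), bone 2 (0.0574) or bone 3 (0.166). All 44 collagen chains were also taken as the load, of which thymus and bone hold about the same share. In that fit 3 of the 10 genes were higher and 3 lower in thymus than in bone. Of all 15635 genes tested, 1875 were higher and 3037 lower there. P4ha1 (0.30, adjusted p = 0.108), Pcolce (0.18, adjusted p = 0.436), Bmp1 (0.20, adjusted p = 0.310) and P4ha2 (-0.06, adjusted p = 0.832) no longer passed.

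**Figure D4:**
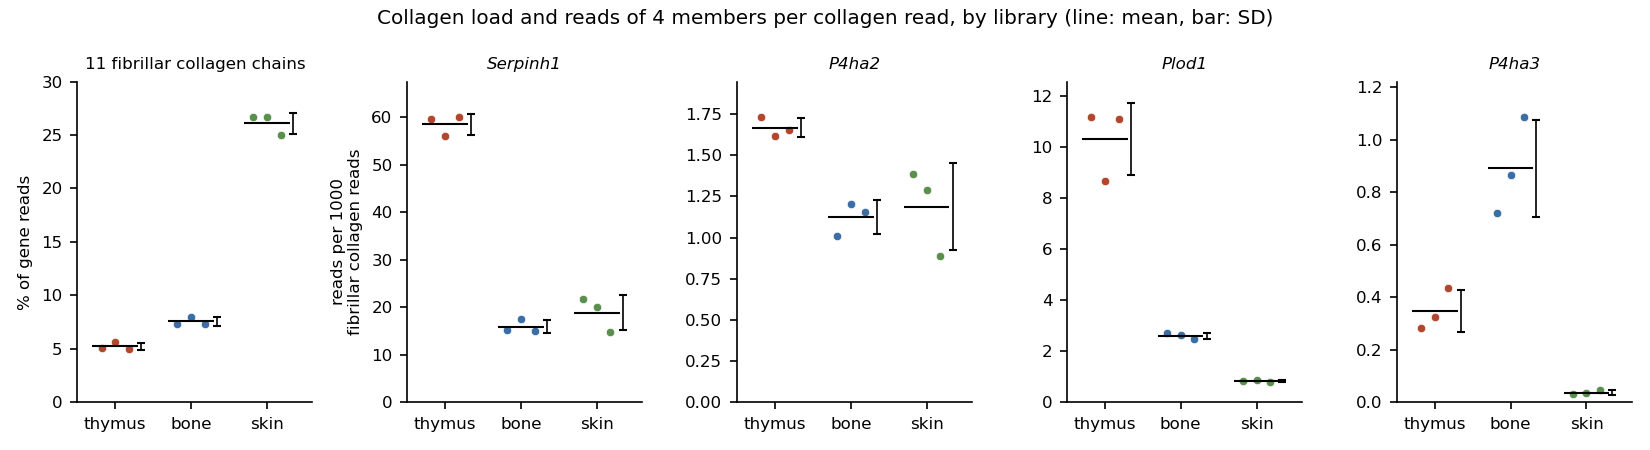
The left panel gives the share of gene reads on the 11 fibrillar collagen chains in each library, and the others give reads of Serpinh1, P4ha2, Plod1 and P4ha3 per 1000 fibrillar collagen reads, on axes that start at 0. Points are libraries, lines means and bars SD. Skin has 25.0 to 26.7% fibrillar collagen reads, and its Plod1 and P4ha3 values are the lowest.

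The other genes of the pathway were read from lists chosen with earlier results of these data known. Beside the counts of every list stand the shares of all genes tested. These were 16.5% higher and 16.1% lower for thymus against bone and 19.3% and 18.3% for thymus against skin. For bone against skin they were 23.7% and 23.4%. No set test was run, so the counts describe the lists only. Of 19 further enzymes and chaperones of the endoplasmic reticulum, 14 were below skin and 2 above it in bone. In thymus 11 were below skin and 4 above it, and 10 were above bone and 1 below it. The thymus count against skin turned to 7 above and 5 below when scaled by library size alone. P4hb, the beta subunit, had 2250 ± 397 CPM in skin, 927 ± 83.6 in bone and 1256 ± 76.5 in thymus. It passed in both comparisons with skin (bone -1.28 ± 0.16, adjusted p = 6.57e-05, and thymus -0.84 ± 0.16, adjusted p = 0.00158), the latter lost with library size alone (adjusted p = 0.264). The prolyl 3-hydroxylase complex of Lepre1 (P3h1), Crtap and Ppib was higher in skin than in bone by 1.97, 1.12 and 1.34 on the log2 scale. Fkbp10, a proline isomerase that assists Plod2, had 256 ± 6.33 CPM in bone and 628 ± 143 in skin (-1.29 ± 0.18, adjusted p = 0.000125), so it did not share the bone maximum of Plod2. Leprel1 (P3h2), which modifies basement membrane collagen, was lowest in skin at 0.932 ± 0.242 CPM, against 10.3 ± 2.58 in bone and 12.8 ± 1.13 in thymus. Glt25d2 (Colgalt2), a galactosyltransferase of hydroxylysine singled out after its values were seen, was highest in bone at 67.0 ± 12.8 CPM against 33.7 ± 3.52 in thymus and 15.2 ± 4.84 in skin, whereas its paralogue Glt25d1 (Colgalt1) was highest in skin at 499 ± 130. The general chaperones Pdia4 (1.09 ± 0.15, adjusted p = 0.000215) and Pdia6 (1.05 ± 0.15, adjusted p = 0.000289) were higher in thymus than in bone.

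Of 13 genes of procollagen export and its regulators, 9 were below skin and 1 above it in bone, and 8 below and 1 above it in thymus. Scaled by library size alone, the counts were 6 below and 4 above in bone, and in thymus they turned to 3 below and 4 above. Between thymus and bone 5 were higher and 0 lower in thymus, and 3 were higher without thymus 2. Creb3l1, a transcription factor of collagen secretion, had 920.3 ± 109 CPM in skin, 244 ± 131 in thymus and 100.5 ± 4.97 in bone (bone against skin -3.19 ± 0.32, adjusted p = 1.84e-05). Kdelr2, the retrieval receptor that returns HSP47 to the endoplasmic reticulum, followed the same order with 485 ± 81.3, 183 ± 5.84 and 139 ± 5.52 CPM. Its step from bone to thymus was at the edge of the threshold (0.40, adjusted p = 0.0493) and was lost without any of the 6 thymus and bone libraries or skin 2. Creb3l2, a relative of Creb3l1 in cartilage secretion, was higher in thymus than in skin (0.79 ± 0.17, adjusted p = 0.00254).

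Of 9 other genes listed as propeptidases, a list that also holds proteases with wider roles, 7 were tested. Adamts2, the main procollagen N-proteinase, had 1118 ± 146 CPM in skin, 444 ± 49.1 in thymus and 332 ± 11.2 in bone (bone against skin -1.75 ± 0.15, adjusted p = 3.69e-06). Tll1, a relative of Bmp1 that cleaves procollagen as well, was also below skin in bone (-1.20 ± 0.23, adjusted p = 0.00115), a call lost with library size alone (adjusted p = 0.0831). Adamts3, an N-proteinase with a high level in cartilage, was highest in bone at 22.3 ± 2.62 CPM, above thymus at 10.8 ± 2.43 and skin at 3.58 ± 0.903. Tll2 had 16.1 ± 1.57 CPM in thymus, against 0.305 ± 0.285 in bone and 0.321 ± 0.325 in skin. In all, 4 were above bone and 1 below it in thymus. Against skin, 2 were higher and 3 lower in thymus, and 1 higher and 4 lower in bone. These turned to 4 and 1 in thymus, and to 2 and 2 in bone, with library size alone. The count of calls for thymus against bone, 5 in all, was 2 without bone 2 or bone 3 and 3 without thymus 2.

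Of 14 genes of cross-linking and fibril assembly, 9 were below skin and 1 above it in thymus, and 8 below and 3 above it in bone. Under library size alone the counts were 8 below and 5 above in thymus and 7 below and 5 above in bone. Between thymus and bone 4 passed each way. Lox, the lysyl oxidase that acts on the lysines and hydroxylysines left by the Plod enzymes, had 906 ± 112 CPM in skin, 491 ± 163 in bone and 239 ± 71.0 in thymus. Its steps passed in each comparison (thymus against bone -1.04 ± 0.26, adjusted p = 0.0106, and bone against skin -0.88 ± 0.26, adjusted p = 0.0165). The latter was lost without bone 1 (adjusted p = 0.0645) or bone 2 (0.0610) and with library size alone (0.544). Loxl1 and Loxl2 were higher in skin than in bone by 2.07 and 1.48 on the log2 scale and did not pass between thymus and bone (-0.14 ± 0.19, adjusted p = 0.625, and -0.12 ± 0.15, adjusted p = 0.603). Fmod, a small proteoglycan that guides lysyl oxidase on the fibril, was highest in bone at 819 ± 239 CPM against 12.7 ± 1.10 in thymus and 35.1 ± 11.8 in skin.

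The cofactor and oxygen genes followed no single tissue. Of 6 genes of ascorbate and metal supply, 4 were tested. Slc23a2, an ascorbate transporter, was lowest in skin at 35.5 ± 1.43 CPM against 71.3 ± 14.0 in thymus and 81.7 ± 1.88 in bone (bone against skin 1.20 ± 0.14, adjusted p = 4.17e-05). Slc39a13, a zinc transporter whose loss gives a loose skin disorder with poor lysine hydroxylation, was below skin in bone (-0.64 ± 0.19, adjusted p = 0.0142), but this call was lost without bone 2 (adjusted p = 0.0502) or skin 2 (0.0556), and with library size alone the sign turned (0.05, adjusted p = 0.825). The transferrin receptor Tfrc was highest in bone at 38.8 ± 2.41 CPM, where the leukocyte markers were also highest. In this list 2 genes were below bone in thymus. Against skin, 1 was higher and 2 lower in thymus, and 2 were higher and 1 lower in bone. With library size alone no gene of the list was below skin, and 1 was above it in thymus and 3 in bone. Without thymus 3, 1 gene passed between thymus and bone.

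Of 6 oxygen-sensing hydroxylases and relatives, 2 were above bone and 1 below it in thymus. Against skin, 1 was higher and 2 lower in thymus, and 2 were higher and 3 lower in bone. These turned to 3 and 0 in thymus, and to 3 and 1 in bone, with library size alone. Egln3, which marks hypoxia-inducible factor for degradation, was highest in thymus with 68.8 ± 4.32 CPM against 12.2 ± 8.24 in bone and 2.27 ± 1.09 in skin. Hif1a itself stood at 141 ± 11.1, 237 ± 54.9 and 165 ± 18.9 CPM in thymus, bone and skin, and was lower in thymus than in bone (-0.75 ± 0.17, adjusted p = 0.0048). The count of calls for bone against skin, 5 in all, was 2 without bone 3 and 2 without skin 2.

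Among the collagens themselves, 9 of the 11 fibrillar chains passed between thymus and skin, 7 lower and 2 higher in thymus. All 11 passed between bone and skin, with 6 lower and 5 higher in bone, and 6 passed between thymus and bone, with 5 lower and 1 higher in thymus. Col1a1 (-2.89 ± 0.17, adjusted p = 2.57e-07), Col1a2 (-2.45 ± 0.16, adjusted p = 6.20e-07) and Col3a1 (-2.46 ± 0.15, adjusted p = 4.50e-07) were lower in bone than in skin. The cartilage chains Col2a1, Col11a1 and Col11a2 were highest in bone, at 221 ± 78.6, 287 ± 132 and 41.0 ± 13.8 CPM. Of 33 other chains, 15 were above bone and 8 below it in thymus. Against skin, 13 were higher and 5 lower in thymus, and 12 higher and 10 lower in bone. The counts were 20 and 4 in thymus and 17 and 8 in bone with library size alone.

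**Figure D5:**
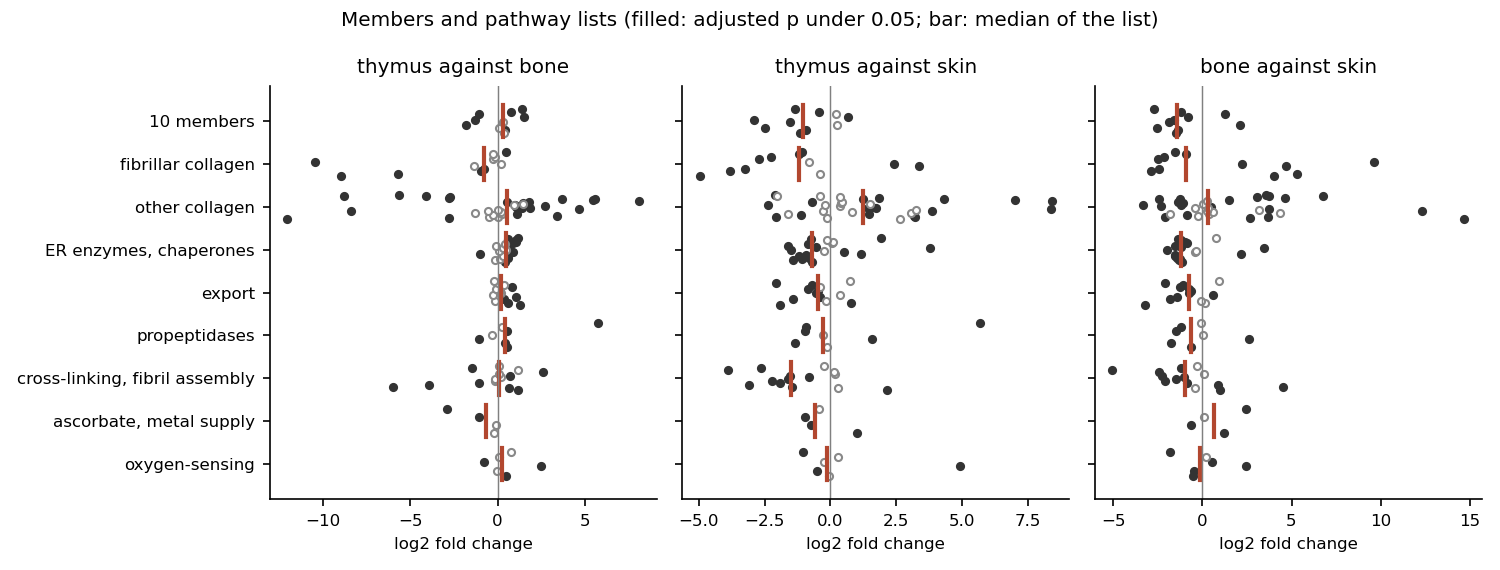
Log2 fold change of the 10 genes and of every tested gene of the 8 pathway lists in the 3 comparisons. Filled points passed an adjusted p of 0.05, open points did not, and the bar is the median of the list. Against skin, the medians of the 10 genes, the fibrillar chains, the endoplasmic reticulum enzymes, the export genes and the cross-linking genes lie left of 0. With library size alone the export median for thymus against skin is 0.15.

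The genes whose log2 CPM ran most like each of the 10 over the 9 libraries were sought among 7493 genes with at least 20 CPM in a tissue. With 3 libraries per tissue, such likeness mostly follows the tissue means, so r is given as a description. Pcolce and Bmp1 were each other's closest gene (Pearson r = 0.995, n = 9 libraries), ahead of every other gene ranked. P4ha2 held among its 3 nearest genes Col5a1 (0.993), a minor fibrillar chain that starts fibrils together with type I collagen. Serpinh1 ran with Smarcd2 (0.994), Fut11 (0.991) and Ssr2 (0.990), and P4ha1 with Pi4kb (0.994). Plod1 ran with the laminin chain gene Lamb1 (0.995), Slc29a3 (0.993) and Src (0.993), and Pcolce2 with Islr2 (0.995). Plod3 was closest to St3gal4 (0.992) and held Kdelr3 (0.983) among its 3 nearest genes. P4ha3 was closest to Cd37 (0.985), a gene of lymphocytes, and to Angptl7 (0.983) and Trabd2b (0.983), which were all highest with it in the bone libraries. The levels of leukocyte markers in bone were given above, and their part in that likeness was not tested. Plod2 had the weakest nearest neighbour, Hivep2 (0.967). Among the 10 genes, P4ha3 and Plod2 ran together (r = 0.943), and both ran against Serpinh1 (-0.90 and -0.87).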

How the data were processed

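RNA-seq of sorted mesenchymal cells was analysed in 3 libraries each of thymus, bone and skin. The authors deposited read counts per gene and RPKM. Per the submitters' processing notes, the processing named CASAVA 1.8.2, HTSeq 0.5.4 and mm10. No source used here gives the strand setting, the aligner or the annotation. The RPKM values, made and deposited by the authors, are by definition per length and per library total, with no TMM factor. Summary lines of unassigned reads, 5.05 to 14.8% of each library, were left out.

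Counts were tested in R 4.3.3 with edgeR 4.0.16 (quasi-likelihood test, robust, TMM scaling, filterByExpr by tissue, all 9 libraries with a mean per tissue). Adjusted p-values are Benjamini-Hochberg values over the 15635 genes tested. In a further fit the library size was the reads on 11 fibrillar collagen chains. DESeq2 1.42.0, limma 3.58.1 on log2 of RPKM plus 1 or 0.1, other scalings and filters, other collagen loads, a replicate block and leaving out each library in turn were alternatives. The edgeR test was tested on simulated counts. Depth was 78757872 to 116759235 gene reads, and single values came with exact permutation tests.

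The members and lists were chosen with earlier results of these data known. Named by rule were all 10 members, up to 4 genes of each pathway list with the smallest p in a comparison, a few pathway genes set by name, and the 3 genes most like each member. A marker and a gene that this rule names are not reported here.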

Additional observations from a re-analysis of the deposited data

How the results depend on the processing

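Scaling mattered for comparisons with skin. Members called higher in thymus than skin numbered 3 with library size only and with limma on log2 of RPKM plus 1, plus 0.1, and plus 1 without a filter. The direction of Plod3 between thymus and skin turned there, to 0.20 with library size only and to 0.12 in each limma setting. All genes gave 6482 higher and 1173 lower for thymus against skin, and 6218 and 1534 for bone against skin, with limma on log2 of RPKM plus 1.

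Relative to collagen, taking all chains as the load gave 3 members higher and 3 lower for thymus against bone. It gave 8 higher and 1 lower for thymus against skin, and 8 higher and 1 lower for bone against skin. Of all 15635 genes tested, 1875 were higher and 3037 lower for thymus against bone. For thymus against skin these were 12285 and 378, and for bone against skin 12858 and 332. P4ha2 then stood at -0.056 for thymus against bone and -0.37 for thymus against skin, and Pcolce2 at -0.79 for thymus against skin. The collagen share of all chains differed by 0.614 percentage points between thymus and bone. With Col1a1, Col1a2 and Col3a1 as the load, P4ha2 for bone against skin was 0.016.

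Leaving out each library in turn gave -0.083 to 0.277 for Pcolce2 relative to collagen in thymus against skin, and -0.251 to 0.048 for P4ha2 in bone against skin. Members lower relative to collagen in bone than skin numbered 0 to 1, with 1 without skin 3, beside 205 of all 16071 genes tested in that fit. The Plod2 class share difference between thymus and skin ranged from -3.23 to 0.0141 percentage points. The cause of these changes was not tested.

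Same-numbered libraries of different tissues did not deviate together (r -0.068 to 0.092 across genes), and not every library correlated best with its own number. Thymus 1-3 shares its number with no other library, so a replicate block fits it exactly. Comparisons with thymus under the block therefore rest on thymus 2 and 3. With the replicate block, members called were 4 higher and 3 lower for thymus against bone, 1 and 6 for thymus against skin, and 2 and 8 for bone against skin. The call lost was Plod3 for thymus against skin (-0.43, adjusted p = 0.120), which was also lost on leaving out thymus 1-3 with no block. Of all 15635 genes tested, 2453 were called higher and 2448 lower for thymus against skin with the block. For bone against skin these were 3400 and 3448. All genes called for thymus against bone were 1663 higher and 1736 lower with the block, instead of 2584 and 2517. Without thymus 1-3 and with no block they were 1977 and 2117. What the pairing itself changed in the thymus comparisons cannot be told apart from the loss of that library. Under the block P4ha3 stood at -0.049 for thymus against skin, and Pcolce2 relative to collagen at -0.063.

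Over all alternatives, 446 counts and shares that answer a comparison kept their direction or size class, 8 moved and 2 reversed. Among values of single genes and counts of lists, 1431 were kept, 28 lost the call, 13 gained it, 14 moved and 14 reversed. A gene was kept if its direction and side of the threshold held. A count was kept if it stayed of similar size. Counts of pathway lists add calls in both directions, so a list whose directions turned with library size alone can still count as kept.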
